A study of Mus musculus with 9 samples.

Results

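The transcripts described here encode 9 signalling proteins of nerve and muscle: the ligand Gdnf with its receptor components Gfra1 and Ret, the neurotrophins Bdnf, Ntf3 and Ntf5, and the guidance proteins Flrt1, Flrt2 and Flrt3. They were picked by gene symbol from 2 tables of RNA sequencing counts. The table of TAC against sham quadriceps lists 587 genes, and 6 of the 9 are among them. The second table, which sets sham quadriceps beside sham heart, lists 35745 transcripts of 24537 gene names, and all 9 are among them, with 29 transcripts. Ret, Bdnf and Flrt3 were therefore not analysed here in TAC quadriceps. The set was put together with the TAC results in view, Gdnf and Flrt1 being among the largest rises, so the values of TAC against sham quadriceps are given as a description with no test. Ntf5 was included with its values in both comparisons known, so they are a description throughout.

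The libraries came from male C57Bl/6JCrl mice (C57Bl6 in the labels) that were 8 weeks old at surgery and were studied 12 weeks later. Transverse aortic constriction (TAC) tightens a ligature on the aortic arch so that the left ventricle pumps against a raised pressure, and sham surgery leaves the aorta open. There were 3 groups of 3 libraries each: heart after sham surgery, quadriceps muscle after sham surgery and quadriceps muscle after TAC. No other treatment of these groups is named, and the labels do not say whether heart and quadriceps came from the same animals. The libraries hold polyadenylated RNA of whole tissue, so fewer cells of a type and less RNA per cell cannot be told apart.

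GDNF is a secreted survival factor for motor neurons that skeletal muscle supplies to its nerve. It binds the membrane-anchored co-receptor encoded by Gfra1, and the complex then activates the tyrosine kinase Ret. The neurotrophins are a second family of survival factors: BDNF and neurotrophin-4 (also called neurotrophin-5, encoded by Ntf5) act mainly through the kinase TrkB (Ntrk2), and neurotrophin-3 mainly through TrkC (Ntrk3). All of them also bind the shared receptor p75 (Ngfr). The FLRT proteins are membrane proteins with leucine-rich repeats that bind UNC5 receptors and latrophilins (Adgrl genes) on neighbouring cells, and parts of them are shed and repel growing axons.

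Gdnf is the ligand whose transcript differed most between the quadriceps groups among the secreted factors of the set, and the reference lists 2 start sites for it. The 100 bases before each are shown, so that the sequences in front of both starts can be compared. They are from RefSeq (GRCm38.p6), on the forward strand of chromosome 15, at chr15:7809948-7810047 for the first and chr15:7813627-7813726 for the second. Capitals mark a TATA box (letters TATAAA) and a half-site of the cAMP response element (letters TGACG, here on the reverse strand). Both motifs, and the E-box (letters CANNTG), were searched on both strands and were chosen after the sequences had been seen.
Gdnf start 1: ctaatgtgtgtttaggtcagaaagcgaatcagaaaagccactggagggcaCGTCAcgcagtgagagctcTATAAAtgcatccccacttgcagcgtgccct
Gdnf start 2: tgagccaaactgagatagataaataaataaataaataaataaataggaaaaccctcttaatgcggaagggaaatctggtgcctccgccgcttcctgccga
In front of the first start, the TATA box began 31 bases before the start and the half-site began 50 bases before it, and an E-box began 17 bases before it. None of these letters was found in front of the second start. Of 32851 windows of 100 bases before the starts of mouse genes, 5.56% held the TATA box, 10.5% the half-site and 34.4% the E-box. These matches are a description of the letters. The counts of the 4 listed Gdnf transcripts took only 2 distinct sets of values. Of the 9 genes, 6 had an entry in the promoter table, and those without one were Ret, Ntf5 and Flrt1.

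Gdnf lies at chr15:7810846-7837575 on the forward strand (GRCm38, GENCODE vM21), with no other annotated gene within its span. This span begins after the first RefSeq start shown above (7810048), so the search for overlaps did not cover that start. Ret at chr6:118151745-118197718, Ntf3 at chr6:126101412-126166910, both on the reverse strand, and Ntf5 at chr7:45413695-45417179 on the forward strand also overlap no other gene. Flrt1 (chr19:7092001-7105729, reverse strand) lies within Macrod1 on the opposite strand, and Flrt3 (chr2:140650914-140671469, reverse strand) within Macrod2, in both cases without a shared exon. Flrt2 (chr12:95692226-95785215, forward strand) overlaps 2 other gene models of its own strand, Gm48014 and Gm48015. Exons of Bdnf (chr2:109674700-109727007, forward strand) overlap Gm45346, and those of Gfra1 (chr19:58235604-58455909, reverse strand) overlap Gm16277, each on the opposite strand. The strand setting of the counting is not given in the sources used here, so reads of Bdnf and Gfra1 cannot be told apart from reads of these partners.

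In quadriceps, Gdnf and Flrt1 were higher after TAC in every library than in any sham library, by 5.64-fold and 8.38-fold. Gfra1 was higher by a smaller amount, Ntf5 was lower on average with overlapping groups, and Ntf3 and Flrt2 also overlapped. Values are normalized counts, which are the raw counts divided by each library's relative size after trimmed mean of M-values (TMM) normalization over the listed genes. Of the 6 listed genes, 3 did not overlap between the groups on the higher side and 0 on the lower side. Over all 586 genes tested, 26.1% did not overlap on the higher side and 21.2% on the lower side (47.3% on either). The median log2 fold change was 0.16 for the 6 and 0.03 for all genes tested. The members were chosen with this contrast known, so nothing is read from these shares.

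Gdnf, the ligand, had 3.25, 12.1 and 12.4 normalized counts in the 3 sham libraries, from 4, 12 and 9 raw counts. After TAC it had 80.4, 48.9 and 22.0, from 83, 50 and 22 raw counts. The lowest TAC library thus stood above the highest sham library, and TAC library 1 was the highest of the 6. The means were 9.25 ± 5.20 and 50.4 ± 29.2 (SD, n = 3 each), and the log2 fold change was 2.50 with a standard error (SE) of 0.63. TAC library 4 has no library total here, so values with library totals in this comparison rest on 5 libraries. With library totals the log2 fold change was 2.24, beside 2.79 with TMM on the same 5 libraries. Over all alternative settings it ranged from 1.92 to 3.13. Sham values rest on few reads, which limits the precision of the fold.

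Gfra1, the co-receptor that binds GDNF, had 63.4, 74.8 and 75.6 normalized counts in sham quadriceps and 130, 80.2 and 94.1 after TAC. The listed transcript, NR_104342, is annotated as non-coding. In the sham tissues the 3 listed Gfra1 transcripts had only 1 distinct set of counts, so the non-coding one was not told apart from the others. The TAC values were all above the sham values, the lowest of them being 80.2 beside the highest sham value of 75.6. The log2 fold change was 0.51 (SE 0.26), but -0.07 when the library totals were the scale, so that its direction depended on the scaling. A ratio of counts within a library does not depend on the scaling. The ratio of Gdnf to Gfra1 counts was 0.0513, 0.162 and 0.164 in sham quadriceps and 0.619, 0.610 and 0.234 after TAC. It was higher in each TAC library than in any sham library.

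**Figure D1:**
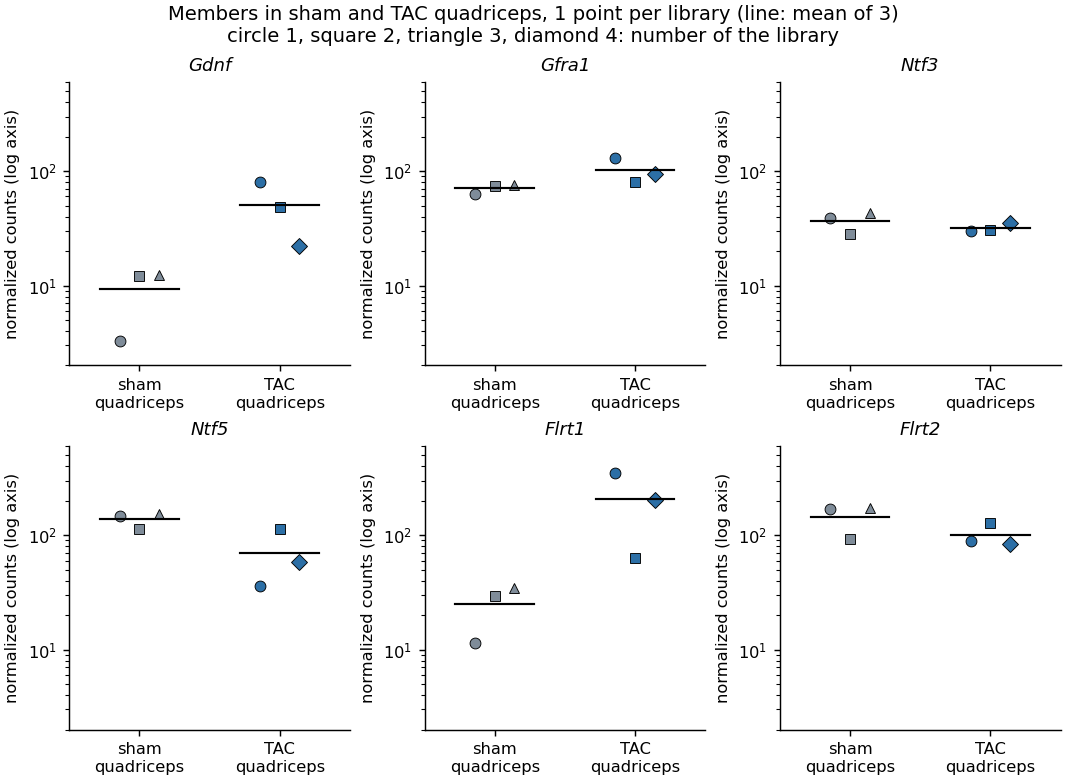
Normalized counts (log axis) of the 6 listed genes in quadriceps after sham surgery (grey) and after TAC (blue), with 1 point per library and a line at the mean of 3. Gdnf and Flrt1 after TAC sit above all sham points, with TAC means of 50.4 and 206, while Ntf3, Ntf5 and Flrt2 overlap between the groups.

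Of the neurotrophins, Ntf5 was the one with the larger difference. Its normalized counts were 147, 114 and 154 in sham quadriceps and 35.8, 114 and 58.1 after TAC. TAC libraries 1 and 4 were below all sham libraries, and TAC library 2 was level with the lowest sham library. The log2 fold change was -0.99 (SE 0.40, 1.99-fold lower), and it ran from -1.56 to -0.75 when single libraries were left out. Ntf3, which encodes neurotrophin-3, had 39.0, 28.3 and 42.6 normalized counts in sham quadriceps and 30.0, 30.3 and 35.1 after TAC. These groups overlapped, and the log2 fold change was -0.20 (SE 0.30), or -0.93 with library totals. Within a library, the ratio of Ntf5 to Ntf3 counts was 3.77, 4.04 and 3.61 after sham surgery and 1.19, 3.77 and 1.66 after TAC. In TAC libraries 1 and 4 it was below every sham ratio, and in TAC library 2 it was level with that of sham library 1.

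Flrt1, one of the FLRT guidance proteins, had the largest fold difference between the groups among the 6 genes and a wide spread after TAC. It had 11.4, 29.3 and 34.4 normalized counts in sham quadriceps, from 14, 29 and 25 raw counts. After TAC it had 349, 63.6 and 205, from 360, 65 and 205 raw counts. TAC library 2, the lowest of its group, was still above every sham library. The means were 25.0 ± 12.1 and 206 ± 143 (SD, n = 3 each), the log2 fold change was 3.07 with an SE of 0.65, and library totals gave 2.48. Over all alternative settings it ran from 2.42, without TAC library 1, to 3.50, without TAC library 2.

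Flrt2, another member of the family, went the other way on average. Its normalized counts were 169, 93.0 and 173 in sham quadriceps and 88.1, 128 and 83.1 after TAC, so the groups overlapped, and the log2 fold change was -0.54 (SE 0.32). The ratio of Flrt1 to Flrt2 counts within a library was 0.0673, 0.315 and 0.198 in sham quadriceps. After TAC it was 3.96, 0.496 and 2.47, higher in each library than in any sham library. Flrt1 was thus the less counted of the pair in all 3 sham libraries and the more counted in TAC libraries 1 and 4.

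The TAC libraries were not alike. Library 1 had the highest Gdnf, Gfra1 and Flrt1 and the lowest Ntf5, and library 2 had the lowest Flrt1 and the highest Ntf5. Gdnf and Flrt1 did not share one order, since Gdnf was lowest in library 4 and Flrt1 in library 2.

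Other features differed between the same libraries. The TAC libraries carried 1166978 to 1326011 counts on the listed genes, and the sham libraries 689630 to 1006148. The library totals were also larger after TAC, at 48614494 and 48999600 for TAC libraries 1 and 2. They were 32651317, 32989108 and 23383452 for the sham libraries, so the groups differed in their totals. Of the fibroblast markers, 5 of 6 were listed, and Col1a1, Col1a2, Col3a1 and Lum were lower after TAC by edgeR's quasi-likelihood test, with log2 fold changes of -3.31, -2.51, -3.95 and -2.34 (adjusted p 0.000557, 0.000812, 0.000557 and 0.00288), while Dcn had 0.17 (adjusted p = 0.601). The endothelial markers Pecam1 and Vwf were higher by 0.63 and 0.84 on the log2 scale (adjusted p = 0.0341 and 0.0346). Their part in the values above was not tested. Ckm, the muscle creatine kinase and the only skeletal muscle marker of this table, stood at 0.45 on the log2 scale (adjusted p = 0.278). Markers of Schwann cells, of the neuromuscular junction and of satellite cells were not analysed here in TAC quadriceps.

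Between the sham tissues, Bdnf and Gfra1 were lower in quadriceps than in heart, and Flrt1 and Flrt2 were higher, by edgeR's quasi-likelihood test (p-values adjusted by Benjamini-Hochberg over 24280 transcripts). Gdnf, Ret, Ntf3 and Flrt3 did not pass. Ntf5 had the widest difference of the set, 33.9-fold higher in quadriceps. Of the 8 genes other than Ntf5, 2 were higher and 2 lower, beside 32.2% of all transcripts called higher and 34.4% called lower. The share called, 4 of 8, was thus not above the 66.6% called over all transcripts. The median log2 fold change of the 8 was 0.22, and that of all transcripts was -0.06. The groups did not overlap for 1 of the 8 on the higher side and for 3 on the lower side, beside 34.2% and 38.3% of all transcripts (72.6% on either). Both comparisons use the same 3 sham quadriceps libraries, so their values stand side by side and are not independent. Gdnf and Flrt1 were chosen with their rise over these sham libraries known, so their p-values here are not free of that choice. With the totals of the libraries as the scale, 3241 transcripts were higher and 15203 lower in place of 7828 and 8354, and the median of all transcripts moved to -0.81 (in the TAC comparison, to -0.63).

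Gdnf was close to the limit of detection in both tissues. It had 7, 1 and 8 raw counts in heart, which gave 0.147, 0.0199 and 0.186 CPM (counts scaled to a common library size, with TMM). In sham quadriceps it had 4, 12 and 9, or 0.147, 0.502 and 0.509 CPM. The groups overlapped, since quadriceps library 1 was below heart library 3 and level with heart library 1. The log2 fold change was 1.66 (SE 0.70, adjusted p = 0.0577), and it passed without heart library 3 (2.12, adjusted p = 0.0458) or without quadriceps library 1 (2.14, adjusted p = 0.0174). With library totals it was 0.92 (adjusted p = 0.256). Its adjusted p ran from 0.0174 to 0.179 when single libraries were left out.

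The receptor components did not share one pattern. Gfra1 had 4.49, 5.37 and 5.17 CPM in heart and 2.87, 3.09 and 3.11 in sham quadriceps, with no overlap. It was 1.66-fold lower in quadriceps (log2 fold change -0.73, SE 0.14, adjusted p = 0.00113), and 2.79-fold lower with library totals (-1.48, adjusted p = 1.92e-05). Ret, the signalling kinase, had 3.42, 3.18 and 2.82 CPM in heart and 3.24, 2.76 and 4.63 in quadriceps, so the groups overlapped. Its log2 fold change was 0.15 (SE 0.20, adjusted p = 0.511), but -0.04 without quadriceps library 3 (adjusted p = 0.843) and -0.59 with library totals (adjusted p = 0.0293). The ratio of Gfra1 to Ret counts was 1.31, 1.69 and 1.83 in heart and 0.886, 1.12 and 0.671 in quadriceps, with no overlap.

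**Figure D2:**
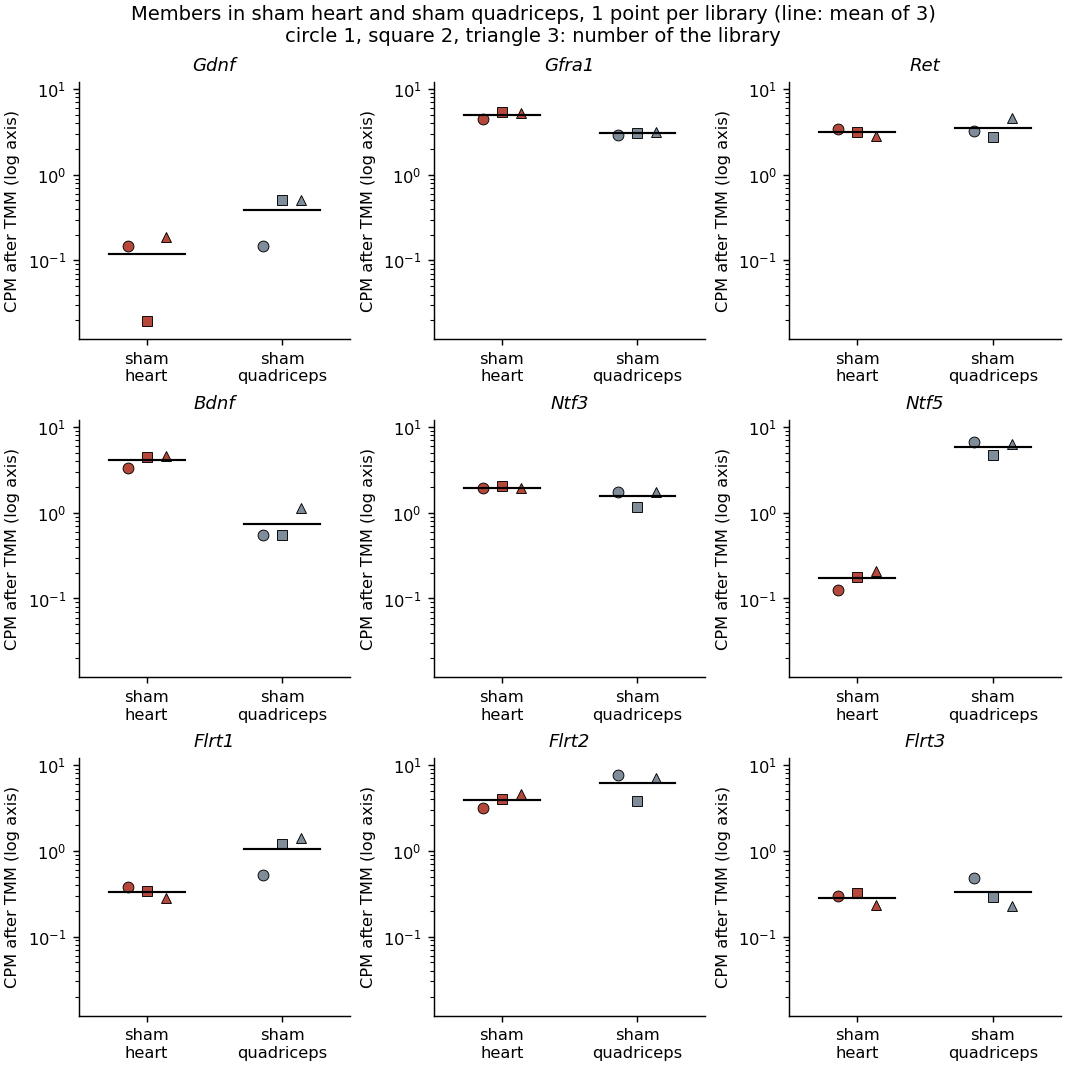
CPM after TMM (log axis) of the 9 genes in sham heart (red) and sham quadriceps (grey), with 1 point per library and a line at the mean of 3. Ntf5 lies far higher in quadriceps and Bdnf far higher in heart, while Ret, Flrt2, Flrt3 and Gdnf overlap between the tissues.

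The neurotrophins differed between the tissues in opposite directions. Bdnf had 3.28, 4.49 and 4.63 CPM in heart and 0.551, 0.543 and 1.13 in quadriceps, from 13 to 20 raw counts. It was 5.80-fold lower in quadriceps (log2 fold change -2.54, SE 0.28, adjusted p = 3.78e-05), and 9.74-fold lower with library totals (-3.28, adjusted p = 1.68e-05). All 12 listed Bdnf transcripts gave log2 fold changes of -2.56 to -2.52, but their counts took only 5 distinct sets of values, so they are not separate measurements. Ntf5 had 0.126, 0.179 and 0.210 CPM in heart, from 6, 9 and 9 raw counts, and 6.65, 4.72 and 6.33 in quadriceps. Its log2 fold change was 5.08 (SE 0.25), or 4.35 with library totals. Ntf3 had 1.93, 2.03 and 1.93 CPM in heart and 1.76, 1.17 and 1.75 in quadriceps. These did not overlap, yet the difference did not pass the test (log2 fold change -0.33, SE 0.20, adjusted p = 0.165). With library totals as the scale it did (-1.07, adjusted p = 0.00232).

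Levels of different genes can be set side by side only per transcript length, as the deposited RPKM values (counts divided by transcript length and by the library total). In sham heart the order of the neurotrophins was Ntf3, Bdnf, Ntf5, with mean RPKM values of 1.90 ± 0.070, 1.34 ± 0.252 and 0.114 ± 0.0286 (SD, n = 3). In sham quadriceps it was Ntf5, Ntf3, Bdnf, with 2.34 ± 0.548, 0.908 ± 0.244 and 0.142 ± 0.0625. These orders held in each of the 3 libraries of either tissue, with no overlap between neighbours. Of the TAC libraries with RPKM values used here, library 1 had Ntf5 at 0.389 and Ntf3 at 0.476, the reverse of the sham order, and library 2 had 1.22 and 0.472.

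**Figure D3:**
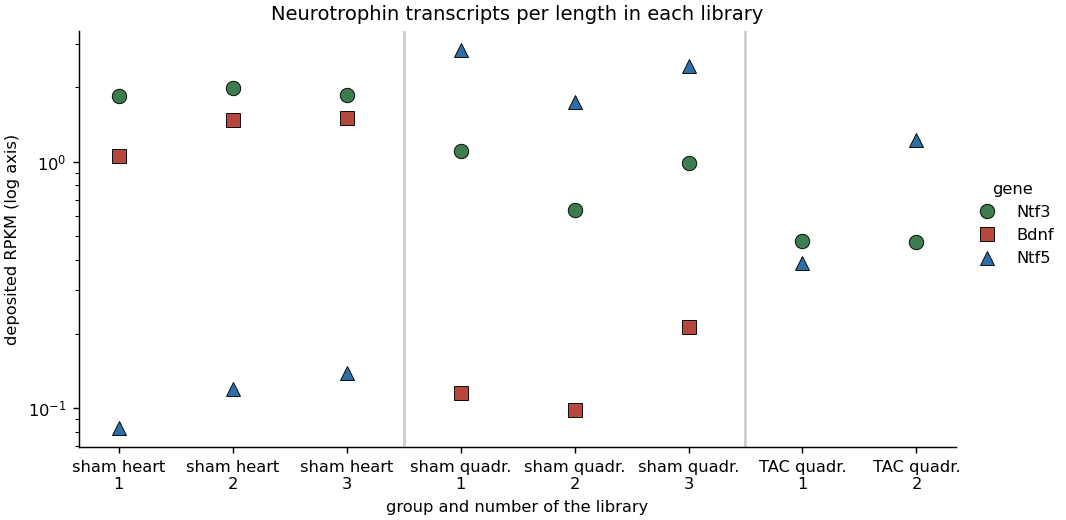
Deposited RPKM (log axis) of Ntf3 (circles), Bdnf (squares) and Ntf5 (triangles) in each library with RPKM values used here. Ntf5 is lowest of the 3 in all heart libraries and highest in all sham quadriceps libraries, and Ntf5 and Ntf3 lie close together in TAC library 1.

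Among all 9 genes, the RPKM order in sham heart after Ntf3 was Gfra1 (1.37 ± 0.136), Bdnf, Flrt2 (0.713 ± 0.134), Ret (0.556 ± 0.0522), Ntf5, Flrt3 (0.0807 ± 0.0129), Flrt1 (0.0735 ± 0.0107) and Gdnf (0.0442 ± 0.0326). Ntf3 stood above Gfra1, Bdnf above Flrt2 and Ret above Ntf5 without overlap, and all other neighbours overlapped. In sham quadriceps, after Ntf5 and Ntf3, the order was Flrt2 (0.684 ± 0.261), Gfra1 (0.491 ± 0.0161), Ret (0.373 ± 0.103), Bdnf, Flrt1 (0.135 ± 0.0563), Gdnf (0.0845 ± 0.0425) and Flrt3 (0.0575 ± 0.0267). Only Ntf5 above Ntf3 and Ret above Bdnf were free of overlap. In TAC libraries 1 and 2, Gdnf reached RPKM values of 0.496 and 0.296 and Flrt1 of 1.26 and 0.226. The receptor Gfra1 thus outnumbered its ligand per length by a wide margin in sham quadriceps, where the per-length ratio of Gdnf to Gfra1 was 0.0705, 0.223 and 0.225. After TAC that ratio was 0.852, 0.839 and 0.322.

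Of the FLRT genes, Flrt1 had 0.378, 0.338 and 0.279 CPM in heart and 0.515, 1.21 and 1.41 in sham quadriceps. Every quadriceps library was above every heart library, and Flrt1 was 3.03-fold higher (log2 fold change 1.60, SE 0.39, adjusted p = 0.00535). The choice of Flrt1 drew on these quadriceps libraries, so its p-values are not free of that choice. It passed with each library left out, at 1.38 to 1.99 and an adjusted p of at most 0.0235, but with library totals it had 0.84 (adjusted p = 0.0688). Macrod1, within which Flrt1 lies on the opposite strand, had 2764, 2853 and 2715 raw counts in heart and 1259, 1294 and 929 in quadriceps, with a log2 fold change of -0.22 (SE 0.10, adjusted p = 0.0835).

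Flrt2 had 3.13, 4.02 and 4.54 CPM in heart and 7.65, 3.85 and 7.12 in quadriceps. Quadriceps libraries 1 and 3 were above all heart libraries, and quadriceps library 2 was within their range. Its log2 fold change of 0.67 (SE 0.25, adjusted p = 0.0374) was -0.06 with library totals (adjusted p = 0.849). It lost its call with at least 10 counts required in every library (0.61, adjusted p = 0.0609), and without heart library 1 (0.53, adjusted p = 0.124), heart library 2 (0.69, adjusted p = 0.0786), quadriceps library 1 (0.49, adjusted p = 0.116) or quadriceps library 3 (0.59, adjusted p = 0.10). Flrt3 had 0.294, 0.318 and 0.233 CPM in heart and 0.478, 0.293 and 0.226 in quadriceps, from 4 to 16 raw counts. Its log2 fold change was 0.28 (SE 0.39, adjusted p = 0.544), but -0.07 without quadriceps library 1 and -0.45 with library totals. Flrt2 had more counts than Flrt3 in all 6 libraries, and the per-length ratio ran from 6.80 to 20.1.

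**Figure D4:**
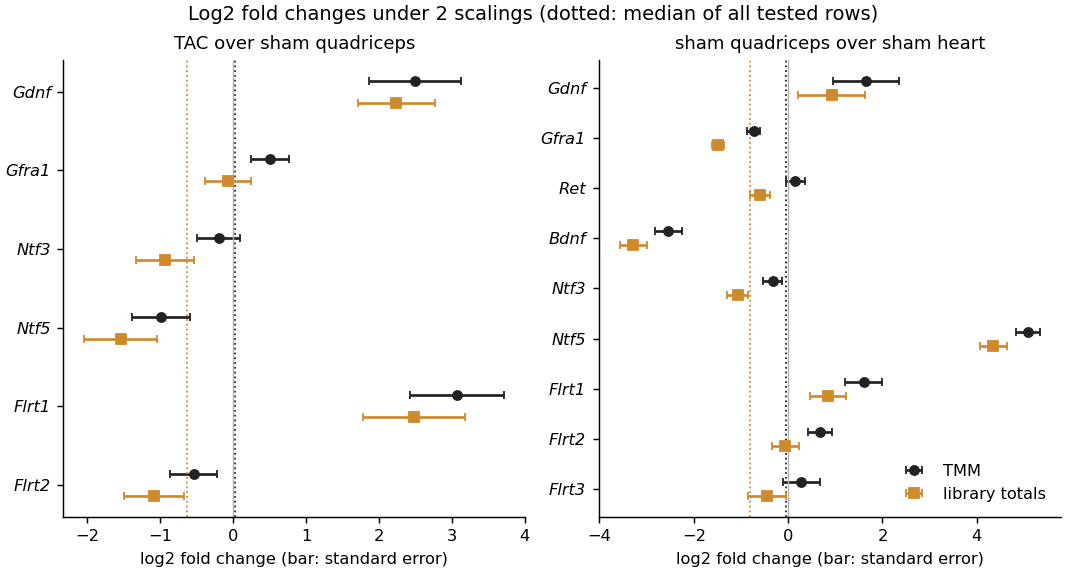
Log2 fold changes with standard errors of the listed genes, TAC over sham quadriceps (left) and sham quadriceps over sham heart (right), with TMM (circles) and with library totals (squares). Dotted lines mark the median of all tested rows under each scaling. The library totals on the left leave out TAC library 4. Library totals move every gene to the left, and Gfra1 on the left and Ret, Flrt2 and Flrt3 on the right change sign.

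Markers of tissue and cell type differed between the sham tissues as well. Summed CPM of 6 skeletal muscle markers was 1150 to 1330 in heart and 63500 to 92200 in quadriceps, and that of 5 heart muscle markers was 27000 to 29500 and 7.57 to 9.78, so the tissue labels matched their defining genes. Schwann cell markers summed to 22.3 to 26.8 CPM in heart and 44.9 to 54.3 in quadriceps, with 3 of 7 called higher. Markers of the neuromuscular junction and of denervated muscle summed to 20.9 to 23.2 and 64.4 to 102, with all 7 tested of 8 called higher and Chrng at no more than 3 counts in each library of both tissues. Endothelial markers ran the other way (404 to 431 in heart, 119 to 138 in quadriceps, 4 of 4 lower), as did leukocyte markers (24.8 to 26.7 and 8.95 to 18.5, 3 of 4 lower), fibroblast markers (606 to 685 and 429 to 598, 3 of 6 lower) and smooth muscle and pericyte markers (399 to 431 and 286 to 411, 2 of 4 lower). Satellite cell markers summed to at most 0.0398 CPM in heart and to 6.80 to 10.6 in quadriceps. Neuronal markers summed to 3.40 to 4.07 and 1.96 to 2.35 CPM, with Snap25 and Th at no more than 3 counts in each library of both tissues. The heart libraries differed in Myl7, an atrial myosin light chain, with 2075, 164 and 3 raw counts. The part of these markers in the values of the 9 genes was not tested.

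The receptors, co-receptors and processing enzymes around these proteins were mostly lower in sham quadriceps than in heart. Of 37 such genes listed, 31 could be tested, and 8 were higher, 18 lower and 5 did not pass, beside 32.2% and 34.4% of all transcripts. Their median log2 fold change was -0.97, or -0.77 with the 6 genes of at most 3 counts in each quadriceps library set at their bound. The list was drawn up with results of these data known. All 12 genes named below as called also passed with library totals, which gave log2 fold changes of 4.67 for Unc5a, 2.82 for Ntrk2, 1.38 for Sort1, 0.75 for Tenm3 and 0.71 for Fgfr1. Those of the lower genes were -2.25 for Plat, -2.36 for Furin, -2.47 for Sdc3, -2.99 for Adgrl2, -3.85 for Pcsk6, -4.06 for Unc5b and -4.08 for Nrtn.

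In the GDNF family, 5 of 7 tested genes were lower and 0 were higher by edgeR's test. Neurturin (Nrtn), a GDNF relative, had 64, 63 and 46 raw counts in heart and 2, 3 and 3 in quadriceps, at least 9.05-fold lower against a floor of 3 counts per library (adjusted p = 2.64e-05). Sdc3, a heparan sulfate proteoglycan that can bind GDNF, was 3.29-fold lower (log2 fold change -1.72, SE 0.12, adjusted p = 2.36e-06). Gfra2 and Ncam1, the neurturin co-receptor and an alternative GDNF receptor, did not pass, with log2 fold changes of -0.12 and 0.01 that became -0.86 (adjusted p = 0.0143) and -0.74 (adjusted p = 0.0403) with library totals.

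Of the 13 neurotrophin receptors and processing genes tested, 4 were higher and 7 lower. Ntrk2, which encodes TrkB, the receptor of both BDNF and neurotrophin-4, had 18, 11 and 7 raw counts in heart and 106, 67 and 41 in quadriceps, 11.8-fold higher (adjusted p = 1.04e-05). It thus lay on the same side as Ntf5 and on the opposite side to Bdnf. Ntrk3, the receptor of neurotrophin-3, had 5 to 14 raw counts in heart and 4 to 8 in quadriceps and did not pass (log2 fold change 0.38, SE 0.54, adjusted p = 0.544, and -0.35 with library totals). The values of Ntrk2 and Ntrk3 are those of the most counted transcript of each gene. The kinase form was thus not told apart from other forms of these receptors. Sort1, the sorting receptor sortilin, was 4.41-fold higher (adjusted p = 1.55e-06).

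The proprotein convertases Furin, which cleaves pro-neurotrophins, and Pcsk6 were 3.04-fold and 8.58-fold lower in quadriceps (adjusted p = 1.81e-06 and 3.23e-08). Plat, the tissue plasminogen activator, was 2.85-fold lower (adjusted p = 1.51e-05).

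Of the 11 FLRT partners tested, 4 were higher and 6 lower. The UNC5 receptors split. Unc5a had 7, 5 and 4 raw counts in heart and 94, 138 and 106 in quadriceps, 43.0-fold higher (adjusted p = 7.03e-07), and Unc5b had 587, 701 and 513 in heart and 25, 41 and 22 in quadriceps, 9.89-fold lower (adjusted p = 5.88e-07). The latrophilin Adgrl2 was 4.72-fold lower (adjusted p = 8.95e-08), while the teneurin Tenm3, which binds latrophilins together with FLRT proteins, was 2.83-fold higher (adjusted p = 1.93e-06). Fgfr1, whose signalling FLRT proteins modulate, was 2.77-fold higher (adjusted p = 8.19e-06).

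**Figure D5:**
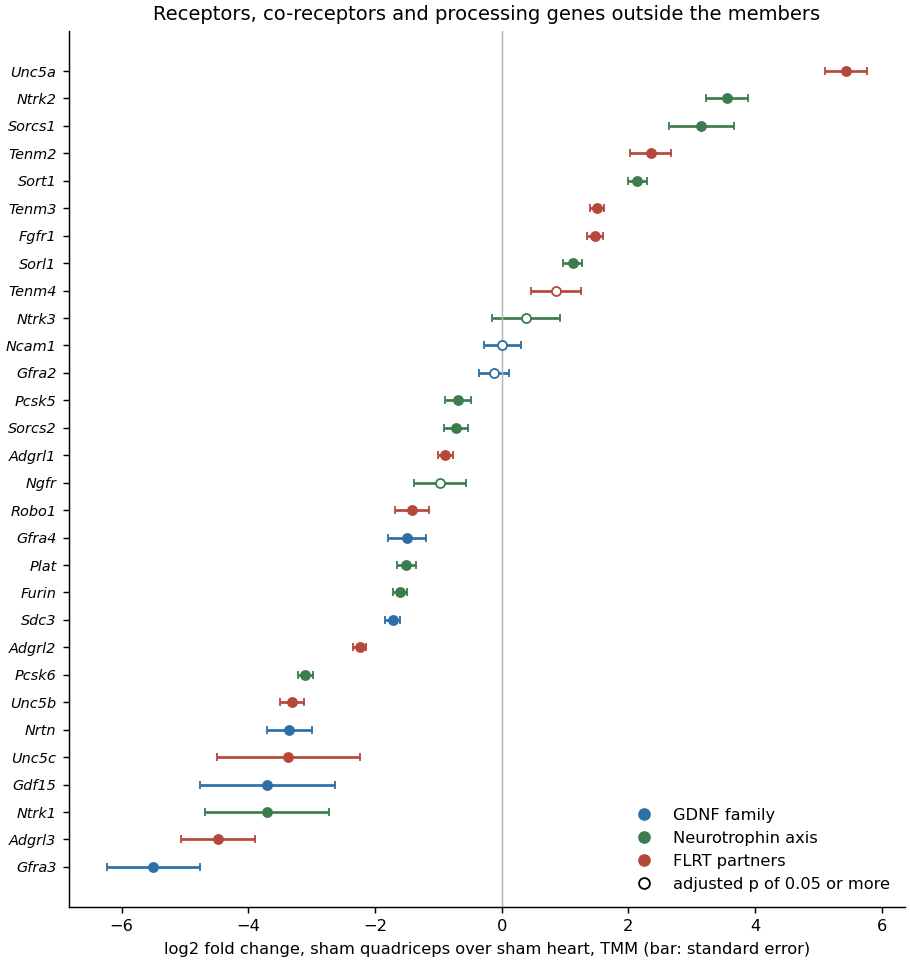
Log2 fold changes (sham quadriceps over sham heart, TMM) with standard errors of the tested genes around the GDNF family (blue), the neurotrophins (green) and the FLRT proteins (red). One tested gene is not shown. Open symbols mark the 5 genes that did not pass. Unc5a at 5.43 and Ntrk2 at 3.56 lie at the top, and Gfra3, with at most 1 raw count in each quadriceps library, at the bottom.

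After TAC, 3 genes of this list could be tested, Pcsk6, Plat and Sorl1, and edgeR called 0 of them, beside 17.7% of all 586 genes called higher and 11.9% lower (29.7% either way). At an unadjusted p under 0.05 there were 2, and DESeq2 also called 0 after adjustment and had 0 at an unadjusted p under 0.05. Pcsk6 and Plat had log2 fold changes of -0.59 (SE 0.23, adjusted p = 0.0873) and -0.63 (SE 0.26, adjusted p = 0.10). With library totals both passed, at -1.18 and -1.13 (adjusted p = 0.0219 and 0.0340). Sorl1, a sorting receptor related to sortilin, had 0.24 with TMM (adjusted p = 0.495) and -0.27 with library totals.

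Over all 9 libraries, the genes whose log2 CPM ran most like that of Gdnf, among 585 others listed in both tables, were Ago2 (Pearson's r = 0.945), Dnajb11 (0.938) and Gpi1 (0.937), and Flrt1 stood at place 17 (0.902). Those most like Flrt1 were Gars (0.987), Ist1 (0.982) and Sod1 (0.982). The 9 libraries differ in tissue, surgery and library total, and these differences bear on all genes at once, so these are descriptions. Gdnf and Flrt1 were both known to rise after TAC when they were chosen, so nothing is read from their correlation with each other. With library totals (8 libraries) the leading genes included Pla2g6 (0.858) and Flrt1 (0.854) for Gdnf, and Vegfd (0.922) and Dicer1 (0.882) for Flrt1. None of the 3 genes named for either was again among its leading 3 with library totals or within the 6 quadriceps libraries.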

How the data were processed

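RNA sequencing libraries of 3 sham heart, 3 sham quadriceps and 3 TAC quadriceps samples were used. Single-end reads were trimmed (Trim Galore) and aligned to mm10 (STAR), and the authors deposited the raw counts that Rsubread gave for each RefSeq transcript. Versions are not given in the sources used here. A read may count on several transcripts of a gene. They also deposited RPKM values per transcript, and edgeR fold changes and p-values, which were not used. The TAC table holds secreted and extracellular proteins only, so TMM factors there refer to the listed genes. One of its columns has the number 4 where the labels run to 3. Its counts were used as a library of the group, and its RPKM column was left out (1 column of a single library unused). Library totals recovered from the RPKM values ran from 23383452 to 48999600 counts (8 libraries). In the libraries of the heart comparison they equalled the counts summed over all listed transcripts, so they are not numbers of reads. Sham quadriceps counts were identical in both tables.

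Rows were kept if 2 or more libraries had more than 5 counts, and were tested with edgeR 4.0.16 (R 4.3.3), using TMM, the quasi-likelihood test and Benjamini-Hochberg adjustment over all rows tested. A call is an adjusted p under 0.05. Standard errors were derived from the fold change and its F statistic. Alternatives were DESeq2 1.42.0, library totals (5 libraries in the TAC comparison), other count filters, leaving out each library, a block on the replicate number, 1 fit of all 9 libraries, 1 transcript per gene and the study's thresholds. A fit without a block of the 4 quadriceps libraries that have the numbers 1 and 2, and TMM on the 5 libraries with totals, were added after seeing the data. The procedure was also run on simulated data with a single dispersion and balanced changes. That setting holds no shift between scalings like the one seen here, so it does not test the choice of scaling. The members, the gene lists and the marker lists were chosen with earlier results of these data known. The transcript named for a gene is that of the TAC table, or else the one with the highest mean count. Named from the lists were the called genes, up to 12 by smallest adjusted p, and the 3 genes most correlated with Gdnf and with Flrt1. Other genes are named as markers, as those that missed a call or as neighbours. The study calls its samples biological replicates, and the labels do not tie libraries to animals, so p-values measure the spread between these libraries. Floors cover counting error only. Replicate libraries differed by more than sampling noise. A few genes of these results are not reported here.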

Additional observations from a re-analysis of the deposited data

How the results depend on the processing

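In the TAC comparison, 104 genes were called higher and 70 lower. Library totals gave 20 higher and 180 lower, the study's thresholds 67 higher, TMM on the 5 libraries with totals 65 higher, all 9 libraries in 1 fit 117 lower, and leaving out single libraries 25 to 113 higher and 35 to 102 lower. Of the pathway genes in this comparison, 0 were called lower, but 2 with library totals and 2 with all 9 libraries, and 0 to 0 without single libraries. In the heart comparison, 7828 transcripts were higher and 8354 lower. Library totals gave 3241 and 15203, 1 transcript per gene 4744 and 5059, the study's thresholds 1699 and 2097, and leaving out single libraries 6987 to 8146 and 7409 to 8357. The cause of the differences between scalings was not tested, while the smaller counts with 1 transcript per gene follow from fewer rows. The 8 higher and 18 lower pathway genes became 4 and 10 with at least 10 counts in every library, 5 and 10 with the study's thresholds, and 8 to 9 and 16 to 18 without single libraries. Directions in the heart comparison reversed for Ret (-0.59 with library totals and -0.04 to 0.30 without single libraries, -0.04 being without quadriceps library 3), Flrt2 (-0.06 with library totals) and Flrt3 (-0.45 with library totals and -0.07 to 0.48 without single libraries, -0.07 being without quadriceps library 1). None (0) of the 3 genes most like Gdnf or Flrt1 was shared in either alternative. Same-numbered libraries did not deviate together (r = 0.0545, -0.0528 and 0.0352 for heart and quadriceps, 0.0633 for the 4 quadriceps libraries numbered 1 and 2), and 2 of 6 libraries correlated best with their own number. With the replicate number as a block, 7541 transcripts were higher and 8175 lower in the heart comparison, and Gdnf passed (1.70, adjusted p = 0.0489). In the TAC comparison the block on 4 libraries gave 56 higher and 62 lower, against 49 and 39 for the same 4 without it. Gdnf in heart, with 1 to 8 raw counts per library, was not kept by the filter of 10 counts, so depth limits what can be said of it.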
